A study of Mus musculus with 6 samples.

Results

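The nuclear genes of the mitochondrial respiratory chain were examined in mouse fibrosarcoma cells with lowered Rras2 RNA. The genes were taken by symbol: every gene on the arrays whose name starts with Ndufa, Ndufb, Ndufc, Ndufs, Ndufv, Sdha to Sdhd, Uqcr, Cox4 to Cox8 or Atp5, which gave 97 of the 19505 named genes. Of these, 85 encode subunits or their tissue isoforms and 12 encode assembly factors that share a prefix, namely Ndufaf1 to Ndufaf8 and Sdhaf1 to Sdhaf4. The 13 subunits encoded by mitochondrial DNA were not analysed here. All cells are of 1 fibrosarcoma line from C57BL/6 mice that carries Rras2(Q72L), a mutant of a small GTPase of the RAS family, so both groups share this allele. The shRras2 cells received a lentiviral vector with a short hairpin RNA against Rras2 (hairpin 89, arrays 4 to 6), and the pLKO cells received the empty vector (arrays 1 to 3). With a single hairpin, effects on other targets cannot be told apart from those of lower Rras2, nor can the group be told apart from any batch that runs with the array numbers.

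Oxidative phosphorylation moves electrons from NADH, at complex I, and from succinate, at complex II, through ubiquinone to complex III, then through cytochrome c to complex IV, where oxygen is reduced. Complexes I, III and IV pump protons across the inner membrane, and complex V, the ATP synthase, uses the returning protons to make ATP. Most subunits come from nuclear genes that nearly all cells use. Complex IV also has isoforms made in a few tissues: Cox6a2, Cox7a1 and Cox8b are the forms of heart and skeletal muscle, while Cox6a1, Cox7a2 and Cox8a are the common forms.

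Values are log2 RMA signals, a scale on which a difference of 1 is a doubling. Rras2 had 9.09, 9.69 and 9.21 on the shRras2 arrays, against 10.67, 10.75 and 10.82 on the pLKO arrays, so that 37.6% of the pLKO signal was left (95% interval 29.9 to 47.2%; limma adjusted p = 0.00163). Across genes (not independent replicates), Pearson's r was 0.988 to 0.993 between arrays of different groups and 0.994 to 0.997 between arrays of 1 group. Over all genes 584 (2.99%) passed an adjusted p of 0.05 as higher and 433 (2.22%) as lower in shRras2 cells, so 57.4% of the calls were higher; with each array centred on its median the numbers were 506 and 567 (47.2% higher). Of the fibroblast markers, 9 of 10 were measured and 5 had both group means above 7.92, the 95th percentile of negative-control probe sets, among them Vim, Fn1 and Col3a1. Of these markers 3 rose, calls that were each lost in 4 or 5 of the 6 fits without 1 array, and the sum of the linear signals was 32061 to 32838 on shRras2 arrays and 28903 to 29518 on pLKO arrays. All epithelial (6), leukocyte (4), endothelial (5) and brown fat (5) markers measured lay below that percentile in both groups, as did 5 of 6 cardiac markers, the other of which, Actn2, rose, a call lost in 4 of those 6 fits. Of 11 skeletal muscle markers 9 rose, none had both group means above the percentile, and the sum of their linear signals was 5182 to 9238 on shRras2 arrays and 1046 to 1305 on pLKO arrays.

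Most oxidative phosphorylation genes differed little between the groups. None of the 97 passed the threshold as higher, against 2.99% of all genes, and 3 passed as lower (3.09%), against 2.22% of all genes and 5.21% for either direction. The 3 that fell were Ndufv3 of complex I, Atp5md of complex V and the complex I assembly factor Ndufaf5. At an unadjusted p under 0.05 in limma, 3 were higher and 10 lower (10.3%), where all genes gave 9.11% higher and 10.0% lower. The median log2 difference was -0.03 over the 97 genes and -0.01 over all genes. The intervals were narrow: the 95% interval lay inside 0.5 on either side of 0 for 92 of the 97 genes, and inside 1 for 96. Of all 19505 named genes, 16265 had an interval inside 0.5 and 19130 had one inside 1. Both group means lay above the negative-control percentile for 76 of the genes and below it for 18.

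**Figure D1:**
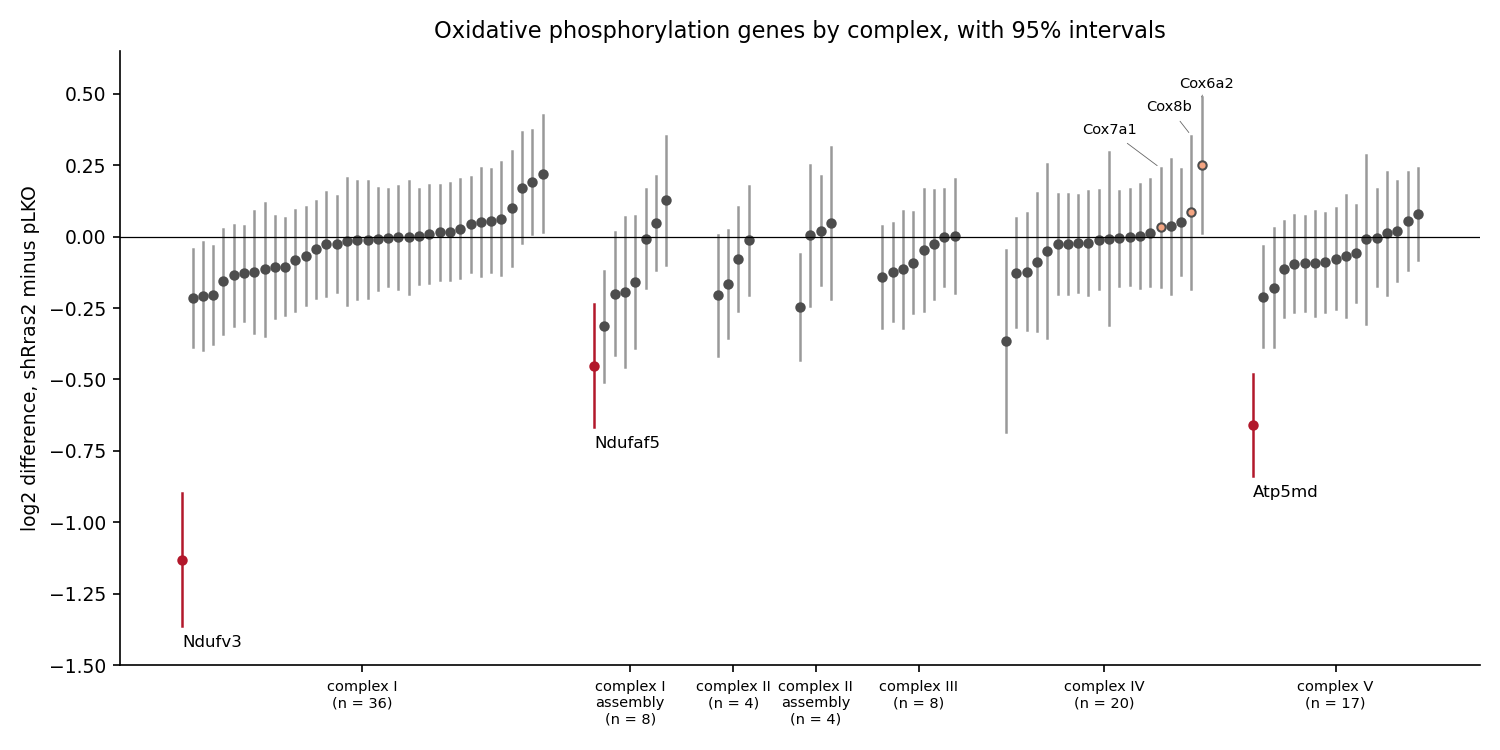
Log2 difference (shRras2 minus pLKO) of each of the 97 genes with its 95% interval, grouped by complex and ordered by size within it. Red marks the 3 genes past the adjusted p of 0.05, Ndufv3, Ndufaf5 and Atp5md, and orange the 3 muscle isoforms of complex IV. Intervals of most other genes cross 0.

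Ndufv3, an accessory subunit of the arm of complex I that takes electrons from NADH, had the largest difference of the 97 genes. Its signals were 6.15, 6.39 and 6.15 on shRras2 arrays, against 7.36, 7.22 and 7.49 on pLKO arrays. The groups did not overlap, and the highest shRras2 value lay well under the lowest pLKO value. The log2 difference was -1.13 ± 0.10 (SE; limma adjusted p = 0.00094), which leaves 45.7% of the pLKO signal (95% interval 38.9 to 53.7%). Both group means lay below the negative-control percentile, where a fold can be understated. The call stayed whichever of the 6 arrays was left out (highest adjusted p = 0.00805). Of the 10 measured members of this arm Ndufv3 alone passed; 7 had a lower mean in shRras2 cells, and the median difference of the 10 was -0.05. Besides Ndufv3, the groups did not overlap in Ndufa12 (-0.21 ± 0.08, adjusted p = 0.162) and Ndufs6 (-0.11 ± 0.07, adjusted p = 0.506), both lower, and in Ndufs4, higher at 0.04 ± 0.07. Over all genes 13.9% did not overlap as lower and 11.6% as higher. Ndufv1, which binds the flavin that accepts electrons from NADH, had 10.87, 10.94 and 10.82 in shRras2 cells, against 10.86, 10.83 and 10.89 in pLKO cells, a difference of 0.02 ± 0.08 (SE). Ndufs1, the largest iron-sulfur subunit of the arm, averaged 9.97 ± 0.09 in shRras2 cells and 9.97 ± 0.02 in pLKO cells (SD, n = 3 each). Ndufv2, the partner of Ndufv1, differed by 0.01 ± 0.07.

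Atp5md, a small membrane subunit of the ATP synthase also called DAPIT, which is associated with the pairing of synthase units in the membrane, fell at signals well above the negative controls. Its signals were 11.24, 11.25 and 11.36 on shRras2 arrays, against 12.01, 11.93 and 11.89 on pLKO arrays. All shRras2 values lay under all pLKO values. The log2 difference was -0.66 ± 0.08 (SE; limma adjusted p = 0.00293), or 63.4% of the pLKO signal (95% interval 56.0 to 71.7%), and the call stayed whichever array was left out (highest adjusted p = 0.0188). The other 16 genes of complex V did not pass.

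The stretches of 250 bases before the RefSeq start of these 2 genes (GRCm38.p6) are shown because theirs were the falls that stayed without any 1 array. They lie at chr17:31519865-31520114, plus strand, and at chr19:47090648-47090897, minus strand. Capitals would mark a match to 1 of 5 motifs described further on, and neither stretch holds one.
Ndufv3: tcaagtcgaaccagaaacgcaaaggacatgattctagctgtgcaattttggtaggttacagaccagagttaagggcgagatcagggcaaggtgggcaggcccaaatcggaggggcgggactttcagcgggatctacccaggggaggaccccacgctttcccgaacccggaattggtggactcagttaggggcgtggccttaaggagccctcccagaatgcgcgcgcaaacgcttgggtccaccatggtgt
Atp5md: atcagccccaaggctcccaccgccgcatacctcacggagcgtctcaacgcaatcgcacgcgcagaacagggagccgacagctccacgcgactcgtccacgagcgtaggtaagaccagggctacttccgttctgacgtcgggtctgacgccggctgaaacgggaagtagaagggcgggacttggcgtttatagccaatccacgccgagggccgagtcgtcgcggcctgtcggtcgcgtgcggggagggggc

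Ndufaf5, an assembly factor known in human cells to hydroxylate the core subunit Ndufs7, had 6.83, 6.85 and 6.77 on shRras2 arrays, against 7.45, 7.19 and 7.16 on pLKO arrays. The groups did not overlap, and pLKO replicate 1 stood above the other 2 pLKO arrays. The difference was -0.45 ± 0.10 (SE; limma adjusted p = 0.0306). Both means lay below the negative-control percentile, and the call was lost in each of the 6 fits without 1 array (adjusted p 0.0512 to 0.111). Ndufs7 itself, which carries the iron-sulfur cluster next to the quinone site, had 10.29, 10.21 and 10.11 on shRras2 arrays, against 10.38, 10.49 and 10.37 on pLKO arrays. That is a difference of -0.21 ± 0.08 which did not pass (adjusted p = 0.212), although the groups did not overlap.

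**Figure D2:**
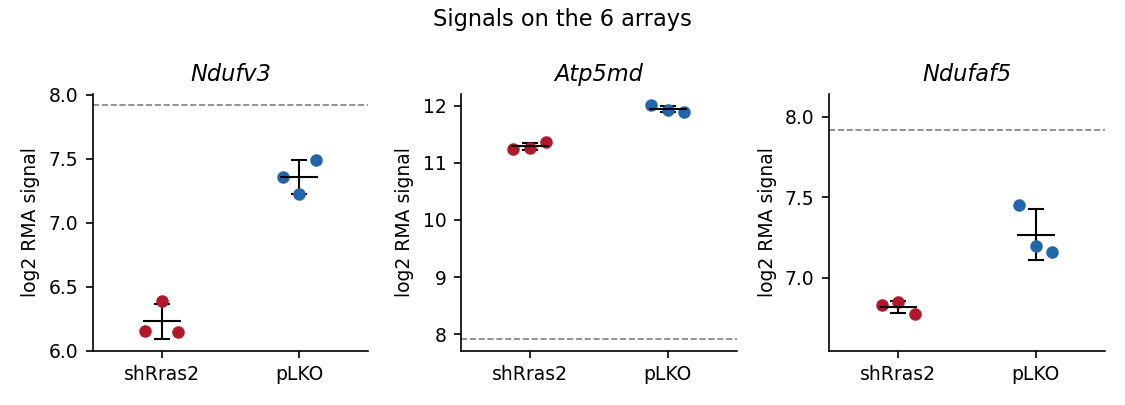
Log2 RMA signal of Ndufv3, Atp5md and Ndufaf5 on the 3 shRras2 and 3 pLKO arrays. Points are arrays, the horizontal mark is the mean and the bars are SDs (n = 3); the dashed line marks 7.92, the negative-control percentile. All shRras2 points lie below all pLKO points, and only Atp5md lies above the dashed line.

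The other assembly factors of complex I had values between Ndufaf4, the lowest, and Ndufaf3, the highest. Ndufaf4, which acts early in complex I assembly, averaged 9.71 ± 0.04 in shRras2 cells and 10.03 ± 0.12 in pLKO cells (SD, n = 3 each). The groups did not overlap, with a difference of -0.31 ± 0.09 (SE; adjusted p = 0.0748). It passed when the dimmest 30% of genes were left out (adjusted p = 0.0431). Ndufaf2 differed by -0.20 ± 0.09, Ndufaf1 by -0.01 ± 0.08 and Ndufaf7 by 0.05 ± 0.07. Ndufaf3 was higher by 0.13 ± 0.10, and none of these 4 passed. The median of the 8 was -0.18, and -0.09 without pLKO replicate 3. Per array the median deviation from the 6-array mean was -0.11, -0.02 and -0.10 in shRras2 cells and 0.06, 0.02 and 0.14 in pLKO cells. Among the 4 assembly factors of complex II, Sdhaf1, which helps to place iron-sulfur clusters in Sdhb, differed by -0.25 ± 0.08 (adjusted p = 0.135), and the other 3 by 0.00 to 0.05.

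In complex I, 36 genes were measured, 34 of them with both means above the negative-control percentile. Their median difference was -0.01, and without Ndufv3 the values ran from -0.21 to 0.22. The lowest after Ndufv3 were Ndufa12, an accessory subunit of the NADH arm, at -0.21 ± 0.08, Ndufs7, given above, and Ndufab1, the mitochondrial acyl carrier protein, at -0.20 ± 0.08. The highest were in the membrane arm. Ndufb11 had 8.56, 8.54 and 8.55 on shRras2 arrays, against 8.21, 8.49 and 8.30 on pLKO arrays, a difference of 0.22 ± 0.09 (adjusted p = 0.228). Ndufa13, also known as GRIM-19, had 11.05, 10.98 and 11.09 on shRras2 arrays, against 10.87, 10.92 and 10.76 on pLKO arrays, a difference of 0.19 ± 0.08 (adjusted p = 0.24). Ndufa1 was next at 0.17 ± 0.09. In each of these 3 membrane-arm genes the groups did not overlap, but none passed the threshold. Over the 21 genes of this arm the median was -0.01. Besides these 3, the groups did not overlap in 4 membrane-arm genes that were lower. Over all genes 11.6% did not overlap as higher and 13.9% as lower. Of the 21 membrane-arm genes, Ndufb4 and its gene copy Ndufb4b (-0.13 ± 0.07 and -0.07 ± 0.08) may share hybridization signal. The 5 genes of the arm that reduces quinone had a median of -0.03; among them the iron-sulfur subunit Ndufs8 differed by -0.12 ± 0.09.

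Complex II, which is also the succinate dehydrogenase of the citric acid cycle, had 4 measured genes with differences at or below -0.01, and none passed. Sdha, the flavoprotein that oxidizes succinate, had 9.56, 9.77 and 9.71 on shRras2 arrays, against 9.84, 9.87 and 9.83 on pLKO arrays (difference -0.17 ± 0.08, adjusted p = 0.325). Sdhd, a membrane anchor, had 10.07, 10.37 and 10.27 on shRras2 arrays, against 10.40, 10.47 and 10.46 on pLKO arrays (difference -0.20 ± 0.09, adjusted p = 0.277). In these 2 of the 4 genes the groups did not overlap, both lower, where 13.9% of all genes did so. In both, shRras2 replicate 4 was the lowest array. The iron-sulfur subunit Sdhb and the other anchor Sdhc differed by -0.08 ± 0.08 and -0.01 ± 0.08.

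Complex III had 8 measured genes with a median of -0.07 and a range of -0.14 to 0.00. Uqcrc1, a core subunit, averaged 10.56 ± 0.07 in shRras2 cells and 10.70 ± 0.05 in pLKO cells (SD, n = 3 each), a difference of -0.14 ± 0.08 (SE; adjusted p = 0.375). The Rieske iron-sulfur protein gene Uqcrfs1 averaged 9.97 ± 0.02 in shRras2 cells and 10.09 ± 0.06 in pLKO cells, a difference of -0.12 ± 0.08 (adjusted p = 0.432). These 2 of the 8 genes were the ones in complex III whose groups did not overlap, both lower, where 13.9% of all genes did so. Uqcrq followed at -0.11 ± 0.09, and at the other end Uqcr10, Uqcrb and Uqcrc2 differed by -0.03 ± 0.08, -0.00 ± 0.07 and 0.00 ± 0.09.

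In complex IV 20 genes were measured, and in 0 of them did the arrays of the groups not overlap, where 13.9% of all genes did not overlap as lower and 11.6% as higher. Cox4i1, Cox5a and Cox5b, common subunits around the catalytic core, differed by -0.02 ± 0.07, -0.03 ± 0.08 and 0.01 ± 0.08. Ndufa4, named for complex I but found in complex IV, had 11.19, 11.28 and 11.25 on shRras2 arrays, against 11.21, 11.27 and 11.23 on pLKO arrays. Its interval, -0.17 to 0.17, bounds any difference there. Cox7a2l, known as a factor for supercomplexes of complexes III and IV, differed by -0.13 ± 0.08, and Cox7b by -0.12 ± 0.09. Whether Cox7a2l acts so in these cells was not tested.

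The muscle isoforms of complex IV did not pass, beside the 9 skeletal muscle markers that rose. Acta1, the skeletal actin gene, had 10.79, 9.95 and 10.48 on shRras2 arrays, against 7.14, 7.83 and 7.91 on pLKO arrays, and Myl1, a fast myosin light chain gene, differed by 3.86 ± 0.25. Cox6a2 had 7.85, 7.69 and 7.91 on shRras2 arrays, against 7.55, 7.74 and 7.41 on pLKO arrays. The groups overlapped through shRras2 replicate 5 and pLKO replicate 2, and the difference was 0.25 ± 0.10 (SE; limma adjusted p = 0.237), the highest of the 97 genes. Replicate 5 was also the lowest of the 3 shRras2 arrays in Acta1 and the highest in Rras2; the part of this in the result was not tested. Cox7a1 had 5.96, 5.91 and 5.69 on shRras2 arrays, against 5.80, 5.87 and 5.80 on pLKO arrays. Cox8b had 5.66, 5.64 and 5.23 on shRras2 arrays, against 5.38, 5.43 and 5.47 on pLKO arrays. In both genes shRras2 replicate 6 was the lowest of the 6 arrays, and the intervals, -0.18 to 0.24 for Cox7a1 and -0.18 to 0.35 for Cox8b, exclude a doubling of the measured signal. All 3 muscle isoforms lay below the negative-control percentile in both groups, where a change can be understated.

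Of the common partners, Cox6a1 had 12.61, 12.59 and 12.53 on shRras2 arrays, against 12.55, 12.60 and 12.58 on pLKO arrays. Cox7a2 and Cox8a differed by -0.09 ± 0.11 and -0.03 ± 0.08. Within each array the log2 ratio of an isoform to its partner was compared between the groups for 6 pairs by an exact two-sided permutation test, whose smallest p with 3 arrays against 3 is 0.1. Cox6a2 over Cox6a1 differed by 0.26 (exact p = 0.2, adjusted over the 6 pairs 0.6), Cox7a1 over Cox7a2 by 0.12 (p = 0.4, adjusted 0.75) and Cox8b over Cox8a by 0.11 (p = 0.5, adjusted 0.75). The other pairs were the testis form Cox6b2 over Cox6b1, which differed by -0.34 (exact p = 0.2, adjusted 0.6), the lung form Cox4i2 over Cox4i1, by 0.02 (p = 1), and the hypoxia-related paralog Ndufa4l2 over Ndufa4, by 0.04 (p = 0.8, adjusted 0.96). None of these 6 exact permutation tests reached its smallest p. Leaving out 1 array moved the differences of these ratios to between 0.18 and 0.33 for Cox6a2, 0.03 and 0.17 for Cox7a1, 0.03 and 0.23 for Cox8b, and -0.44 and -0.19 for Cox6b2. Those of Cox4i2 (-0.13 to 0.12) and Ndufa4l2 (-0.07 to 0.11) changed sign. Cox6b2 alone had 5.42, 5.08 and 5.37 on shRras2 arrays, against 5.64, 5.91 and 5.41 on pLKO arrays, and did not pass (adjusted p = 0.196). Further testis forms, Cox7b2 and Cox8c, differed by 0.05 ± 0.08 and -0.05 ± 0.13.

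**Figure D3:**
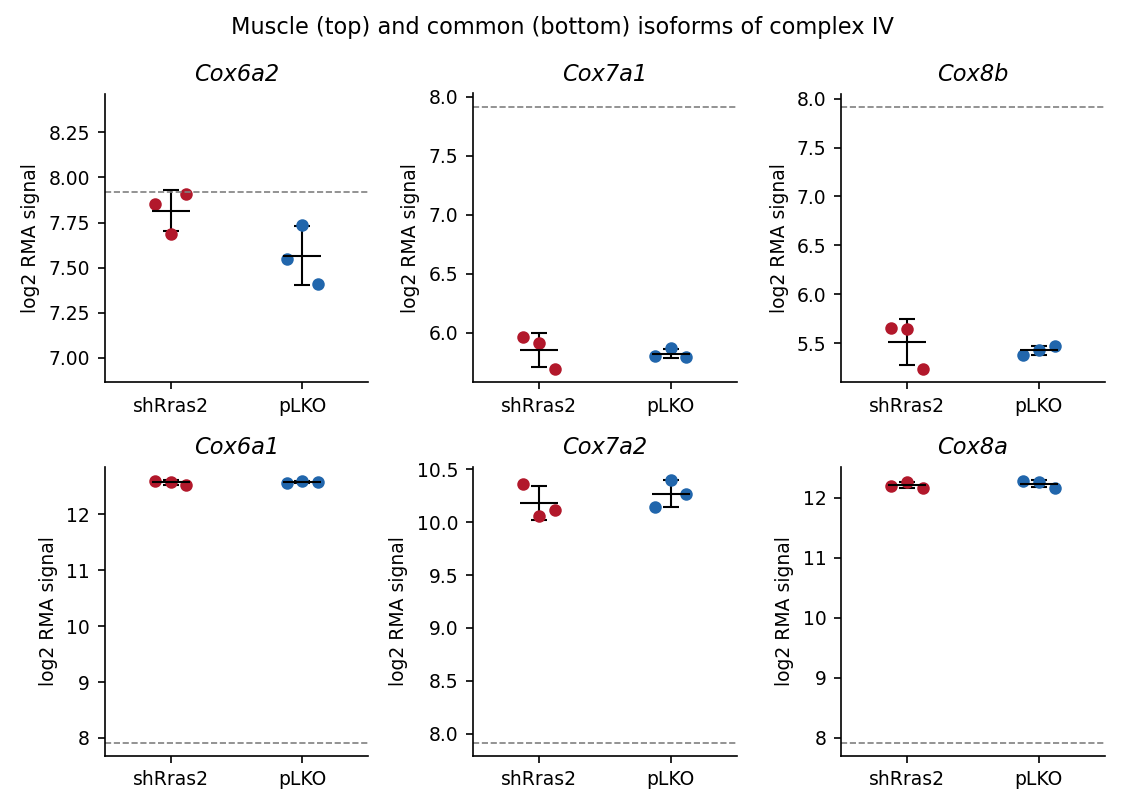
Log2 RMA signal of the muscle isoforms Cox6a2, Cox7a1 and Cox8b (top) and their common partners Cox6a1, Cox7a2 and Cox8a (bottom) on the 3 shRras2 and 3 pLKO arrays. Points are arrays, marks are means and bars SDs (n = 3); the dashed line marks 7.92, the negative-control percentile. The groups overlap in all 6 genes, and the muscle isoforms lie below the line.

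In complex V, 17 genes were measured with a median of -0.08. The 5 genes of the F1 head and central stalk had a median of -0.09, the 3 c-ring genes -0.11, the 4 of the peripheral stalk 0.01 and the 5 small membrane subunits -0.07. Atp5d, the delta subunit of the central stalk, had 11.97, 11.83 and 11.96 on shRras2 arrays, against 12.14, 12.15 and 12.10 on pLKO arrays. Its groups did not overlap, and the difference of -0.21 ± 0.08 did not pass (adjusted p = 0.179). In 5 of the 17 genes the groups did not overlap as lower, and in 1 as higher, where 13.9% and 11.6% of all genes did so. Those lower were Atp5md, Atp5d, Atp5a1 (-0.09 ± 0.07), Atp5b and Atp5g2, and the higher one was Atp5j2. The catalytic beta subunit gene Atp5b averaged 12.79 ± 0.05 in shRras2 cells and 12.88 ± 0.04 in pLKO cells (SD, n = 3 each). The gamma subunit gene Atp5c1 differed by -0.08 ± 0.08. Among the 3 genes for the same c-ring protein, Atp5g1, Atp5g2 and Atp5g3 differed by -0.18 ± 0.09, -0.11 ± 0.07 and -0.06 ± 0.07. Atp5j2, a membrane subunit, had 11.36, 11.35 and 11.35 on shRras2 arrays, against 11.29, 11.25 and 11.28 on pLKO arrays. That was the highest difference of the complex at 0.08 ± 0.07, and with Atp5h (0.05 ± 0.08) and Atp5pb (0.02 ± 0.08), both of the peripheral stalk, it did not pass. Atpif1, the inhibitor of the enzyme's reverse action and outside the symbol rule, differed by 0.07 ± 0.09.

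Small differences below 0 outnumbered those above. Of the 97 genes 67 (69.1%) had a lower mean in shRras2 cells, where 53.2% of all genes did, and in 20 (20.6%) all shRras2 arrays lay below all pLKO arrays, where 13.9% of all genes did. The opposite order held for 5 genes, beside 11.6% of all genes. This balance moved with the scaling. With cyclic loess 51.5% of the 97 and 49.8% of all genes had a lower mean, and the median of the 97 was -0.00089. With each array centred on its median it was 83.5% against 63.7% of all genes, with a median of -0.07 beside -0.05 for all genes.

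**Figure D4:**
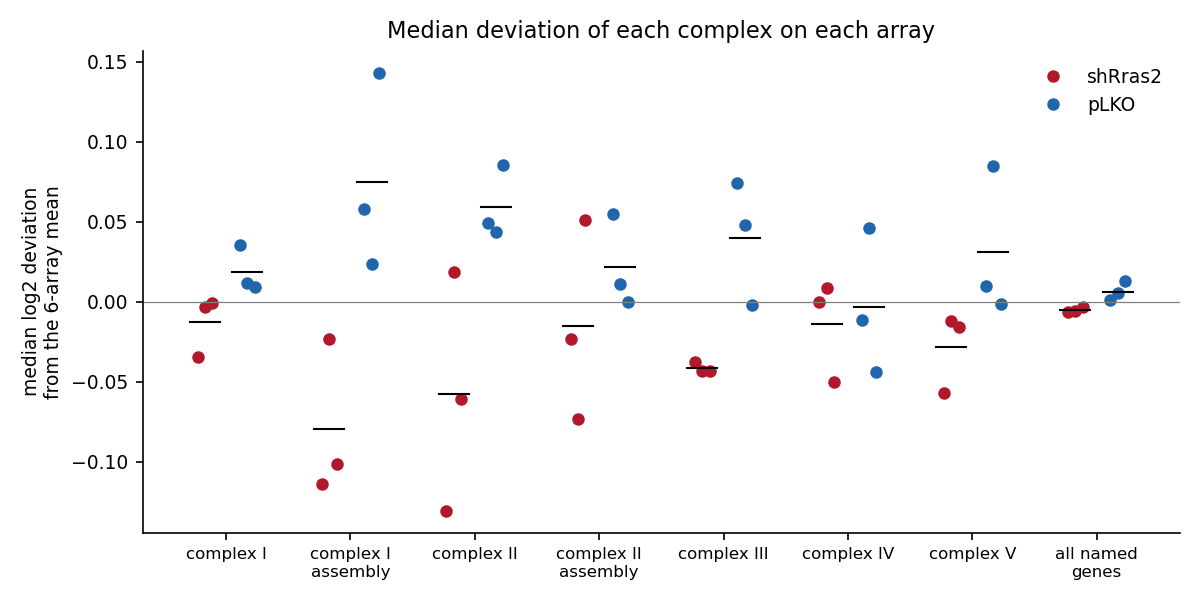
Median over the genes of each complex of the log2 deviation from the gene's 6-array mean, 1 point per array (shRras2 left, pLKO right), with the mean of the 3 arrays as a line; all named genes stand at the right. The points of complex IV and of the complex II assembly factors overlap between the groups, and those of the other sets do not. The largest deviation is 0.143, in the complex I assembly factors on pLKO replicate 3.

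Genes of the same pathway outside the symbol rule were read from 7 lists, of which the list of mitochondrially encoded subunits had no measured member. Over the other 6 lists 113 genes were measured, and 3 rose and 5 fell, where 2.99% of all genes rose and 2.22% fell. The 3 of 113 are near their share, and the 5 of 113 lie above theirs. At an unadjusted p under 0.05 in limma, 4 of the 113 were higher and 19 lower. All genes gave 9.11% higher and 10.0% lower. One list held 18 measured genes of the citric acid cycle, the pyruvate dehydrogenase complex and pyruvate carboxylase. Of these 2 fell and 0 rose, and 7 were lower at an unadjusted p under 0.05, where 10.0% of all genes were. Idh3b, a subunit of the NAD-dependent isocitrate dehydrogenase, had 10.21, 10.23 and 10.27 on shRras2 arrays, against 10.88, 10.88 and 10.81 on pLKO arrays (difference -0.62 ± 0.07, limma adjusted p = 0.00281). Suclg2, the subunit of succinyl-CoA synthetase that makes it use GDP, had 8.38, 8.67 and 8.71 on shRras2 arrays, against 9.28, 9.23 and 9.41 on pLKO arrays (difference -0.72 ± 0.11, adjusted p = 0.00735). In both the groups stood clearly apart, and both calls stayed in each of the 6 fits without 1 array. Succinate dehydrogenase, the enzyme after this step, is the complex II described above.

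Of 16 measured genes of electron carriers and ubiquinone synthesis 1 fell and 2 rose, where 2.22% of all genes fell and 2.99% rose. At an unadjusted p under 0.05 in limma, 2 of the 16 were higher and 3 lower, where all genes gave 9.11% and 10.0%. Coq4, needed for ubiquinone synthesis, had 8.02, 8.02 and 8.01 on shRras2 arrays, against 8.47, 8.51 and 8.54 on pLKO arrays (difference -0.49 ± 0.07, limma adjusted p = 0.00718), and stayed in each of the 6 fits without 1 array. Coq8a, an atypical kinase of the same pathway, rose by 0.61 ± 0.14 at signals below the negative-control percentile (adjusted p = 0.0449), and Coq10a, a ubiquinone-binding protein, by 0.36 ± 0.09 (adjusted p = 0.0466). The call of Coq8a stayed in 2 of these fits, without pLKO replicate 2 and without shRras2 replicate 5 (adjusted p up to 0.15 in the others), and that of Coq10a in 0 (0.0693 to 0.158). Cycs, somatic cytochrome c, differed by -0.22 ± 0.07 and Cyc1, the cytochrome c1 of complex III, by -0.15 ± 0.08, and neither passed (adjusted p = 0.144 and 0.335).

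Of 24 genes of complex IV assembly and copper delivery 1 fell and 0 rose. At an unadjusted p under 0.05 in limma, 1 of the 24 was higher and 4 were lower, where all genes gave 9.11% and 10.0%. Coa5, an assembly factor, had 9.68, 9.79 and 9.74 on shRras2 arrays, against 10.18, 10.19 and 10.20 on pLKO arrays (difference -0.45 ± 0.07, limma adjusted p = 0.0115). It was lost without shRras2 replicate 4 (adjusted p = 0.0523) and stayed in the other 5 fits. Of 20 further assembly factors for complexes I, II, III and V none passed in limma. At an unadjusted p under 0.05, 0 were higher and 1 lower, beside the same shares of all genes. Of 14 carriers and shuttles 1 fell and 0 rose, where 2.22% of all genes fell and 2.99% rose. At an unadjusted p under 0.05 in limma, 0 of the 14 were higher and 1 lower, where all genes gave 9.11% and 10.0%. The aspartate-glutamate carrier gene Slc25a13 fell by 0.51 on the log2 scale (adjusted p = 0.0331). Its call stayed without shRras2 replicate 5 and was lost in the other 5 fits (adjusted p up to 0.127).

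Among 21 regulators of mitochondrial transcription and biogenesis 1 rose and 0 fell, where 2.99% of all genes rose and 2.22% fell. At an unadjusted p under 0.05 in limma, 1 of the 21 was higher and 3 were lower, where all genes gave 9.11% and 10.0%. Ppargc1a, the coactivator PGC-1 alpha, had 8.05, 8.06 and 8.23 on shRras2 arrays, against 7.50, 7.26 and 7.19 on pLKO arrays. The groups did not overlap, the difference was 0.80 ± 0.10 (limma adjusted p = 0.00407), and the pLKO mean lay below the negative-control percentile. Its DNA-binding partner Nrf1 had 9.73, 9.61 and 9.72 on shRras2 arrays, against 9.86, 9.86 and 10.00 on pLKO arrays, a difference of -0.22 ± 0.08 that did not pass (adjusted p = 0.187). Gabpa, an ETS factor of respiratory genes, and Tfam, which packs and transcribes mitochondrial DNA, differed by -0.11 ± 0.09 and 0.03 ± 0.12. Pprc1 and Tfb2m, of the same list, differed by -0.41 ± 0.12 and -0.33 ± 0.09, and neither passed (limma adjusted p = 0.0885 and 0.0687). With Nrf1 they were the 3 that were lower at an unadjusted p under 0.05.

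What the 97 genes share beyond their names was read from RefSeq promoters (GRCm38.p6), windows of 250 bases before to 50 after a start, which were held for 81 of the 97 genes in 86 windows. Motifs were searched on both strands: the NRF1 core GCATGCGC, the ETS motif CCGGAAG, the YY1 motif AAGATGGCG, the estrogen-related receptor motif TCAAGGTCA and the E box CAGCTG used by myogenic factors. The NRF1 core was in 14% of the windows of these genes, against 5.59% for all named genes above the negative-control percentile and 2.71% of all promoters. The ETS motif was in 25.6%, against 19% and 8.86%, and the YY1 motif in 9.3%, against 3.39% and 1.4%. The estrogen-related receptor motif was in only 2 of the 86 windows (2.33%), against 0.293% and 0.423%. The E box was in 6 of the 86 (6.98%), against 14.2% and 16.3%. At least 1 of the NRF1, ETS and YY1 motifs was in 40.7% of the windows, against 25.9% and 12.1%. A match is a description of these letters and not a binding site. Of the windows of the genes that fell, that of Ndufv3 held none of the 5 motifs, that of Atp5md an ETS match just after the start and that of Ndufaf5 an NRF1 core after the start. Of the muscle isoforms, the window of Cox8b held an E box 19 bases before the start and another after it. The window of Cox7a1 held none of the 5, and no window was held for Cox6a2.

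The 3 stretches that held 2 of the NRF1, ETS and YY1 motifs before the start are shown with the motifs in capitals, because they hold a pair of different motifs; most windows of the 97 genes held none of them. Cox6a1, the common partner of Cox6a2, has an NRF1 core, read on both strands, and an ETS motif (chr5:115348959-115349130, minus strand). Atp5l, a membrane subunit of ATP synthase, has the same pair (chr9:44920938-44920992, minus strand). Atp5j, of the peripheral stalk, has a YY1 and an ETS motif (chr16:84835021-84835074, minus strand).
Cox6a1: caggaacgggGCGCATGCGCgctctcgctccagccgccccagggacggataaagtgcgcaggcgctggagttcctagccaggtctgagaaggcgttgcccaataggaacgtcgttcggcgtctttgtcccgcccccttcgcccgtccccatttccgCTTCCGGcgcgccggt
Atp5l: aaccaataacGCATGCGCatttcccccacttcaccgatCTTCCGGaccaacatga
Atp5j: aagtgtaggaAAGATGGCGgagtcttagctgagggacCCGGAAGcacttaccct
Their log2 differences were -0.01 ± 0.07 for Cox6a1, 0.01 ± 0.09 for Atp5l and -0.00 ± 0.07 for Atp5j, and none passed.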

How the data were processed

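The values are log2 signals, 1 per probe set and array, which the authors deposited; they were computed by RMA (R 3.6.3, per the submitters' processing notes). Such normalization usually makes the arrays' probe distributions equal before summarizing, which can hide a shift common to most genes; the medians over genes still ran from 7.22 to 7.28. The sources used here name neither its package version nor a genome build. The 29129 probe sets include 6923 controls, and the platform annotation names 19572. Each symbol is represented by its brightest probe set (mean of 6 arrays), which gives 19505 genes; each of the 97 genes had 1. Groups were compared with limma 3.58.1 in R 4.3.3 (lmFit, eBayes, two-sided, no covariates, 3 arrays each), with Benjamini-Hochberg adjustment over all genes. Errors on differences are SEs from limma. The method was tested on simulated data. The number of arrays limits the precision. The labels do not say that the arrays of a group come from separate cultures, so the p-values reflect the spread among these arrays alone, which may be technical. At most 7 values were identical in any pair of arrays.

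Genes named in the text are those past the threshold, tissue isoforms with their partners, the 3 highest and 3 lowest of each complex, core subunits, list genes past the threshold and a few markers. Ndufv2, Ndufs4, Ndufs6, Ndufab1, Ndufb4, Ndufb4b, Cycs, Cyc1, Nrf1, Gabpa, Tfam, Pprc1, Tfb2m, Atp5a1, Atp5l and Atp5j were added after their values were seen. The genes and lists were chosen with earlier results of these data known. Alternatives were other scalings, a filter on dim genes, other probe set choices, other variance settings, array weights and leaving out each array.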

Additional observations from a re-analysis of the deposited data

How the results depend on the processing

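The falls of Ndufv3 and Atp5md passed in all 8 alternatives and all 6 fits without 1 array, and Ndufaf5 in the 8 alternatives only. No oxidative phosphorylation gene was called higher in any of these fits. With a trend and robust variances 6 were called lower, adding Ndufaf4, Ndufa12 and Atp5d (adjusted p = 0.013, 0.037 and 0.016), while calls over all genes rose to 965 higher and 943 lower and those of the related lists to 12 lower; without the dimmest 30% of genes the related lists gave 8 lower. At an unadjusted p under 0.05, second quantile normalization left 1 of the 97 higher, centring on the median 0 higher and 16 lower, and trend and robust settings 17 lower. Centring gave medians of -0.066 over the 97 genes, -0.0519 in complex I, -0.109 in complex III, -0.0501 in complex IV and -0.118 in complex V, and cyclic loess gave -0.00089 and 0.0063 for the 97 and complex I. Centring moves the median of all genes by -0.04; the cause of the other moves was not tested.

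Without 1 array, calls over all genes ran from 280 to 684 higher and 112 to 452 lower, and those of the 97 stayed at 0 higher and 2 lower. At an unadjusted p under 0.05 they were 0 to 3 higher and 5 to 11 lower. Medians ran from -0.051 to -0.0286 over the 97, -0.0312 to -0.00688 in complex I, -0.22 to -0.0903 in its assembly factors, -0.0469 to 0.0402 in those of complex II and -0.0927 to -0.0328 in complex III. The numbers over all genes fell without any array except shRras2 replicate 5. The related lists gave 1 to 2 higher and 3 to 5 lower. Cox8c ran from -0.13 to 0.11 and Sdhaf2 from -0.11 to 0.0742, both with a change of sign. No paired analysis was possible because the groups share no replicate numbers. Isoform ratios were tested only by a permutation test that cannot pass 0.05. Of the 97 genes, 18 had both means below the negative-control percentile, so changes in them can be understated.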
